A study of Bos taurus with 14 samples.

Results

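CNN1 (ENSBTAG00000011207) and GJC1 (ENSBTAG00000004036) are a pair of genes with known roles in smooth muscle, measured here in bovine endometrial explants cultured with or without sPIF, a synthetic version of the preimplantation factor peptide. They were chosen by name, from genes whose counts were lower with sPIF in these same explants. They are 2 of the 24616 genes in the count table, and 2 of the 13233 that were tested, a gene being tested where none of its libraries held under 10 counts. Because the sPIF contrast chose them, their values under sPIF are given as a description without a test. Tests are kept for lane, for progesterone group and for the interactions of these with sPIF. The interactions rest on the same within-cow differences that chose the genes, so no lack of interaction is read from their p-values.

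The uteri came from 7 heifers (called cows here) at an abattoir, staged as late in the oestrous cycle by a regressing corpus luteum. Intercaruncular endometrium was punched out and dissected from the myometrium with scissors. Explants were cultured for 30 h in medium with the DMSO vehicle (Control) or with sPIF at 100 nM in the same vehicle, and RNA from a piece cut from 1 explant of each treatment was sequenced for every cow, giving 14 libraries. Cows 1 to 4 were sequenced in lane 1 and cows 5 to 7 in lane 2, where each library had 2 sequencing runs whose counts were added. Cows 2 to 5 formed the high and cows 1, 6 and 7 the low progesterone group, by the serum concentration of progesterone. Totals ranged from 15885642 to 28625724 counts, the median library holding 18886976.

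Calponin 1, the product of CNN1, binds actin and belongs to the contractile apparatus of differentiated smooth muscle. GJC1 encodes a connexin that forms gap junction channels between cells and is known from vascular smooth muscle and from the conduction system of the heart. The endometrium lies on the myometrium, a smooth muscle layer, and its own vessels have a muscular wall, so an endometrial explant can hold smooth muscle cells from either source.

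Cow 3 stood apart from the other cows before any single gene was considered. The SD over the tested genes of the log2 difference between the explants of a cow was 0.76 in cow 3 and between 0.35 and 0.51 in the other cows. The sPIF fold changes of CNN1 and GJC1, their interactions and the correlation of their differences are therefore given with and without cow 3. Other values include cow 3 unless stated.

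In the Control explants of lane 1, the CNN1 level was 26.0 CPM in cow 1, 34.7 CPM in cow 2, 44.2 CPM in cow 3 and 88.9 CPM in cow 4, where CPM are counts scaled to a common library size with TMM normalization. In the Control explants of lane 2 it was 92.2 CPM in cow 5, 100.2 CPM in cow 6 and 159 CPM in cow 7. With sPIF the CNN1 level was 21.5, 30.9, 17.2 and 45.7 CPM in cows 1 to 4, and 48.5, 63.3 and 117 CPM in cows 5 to 7. Cow 7 had the highest CNN1 level of its group in both treatments and the cows of lane 2 lay above those of lane 1 in both. Among Control libraries the lanes were ordered in this way for 15.8% of the genes tested, and the share among sPIF libraries is not given here. The Control and sPIF explants overlapped widely. The mean CNN1 level was 77.9 ± 46.6 CPM (SD, n = 7) in Control explants and 49.2 ± 34.1 CPM (SD, n = 7) in sPIF explants, and the highest library was 6.10 times the lowest among the former and 6.82 times among the latter.

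The GJC1 level in Control explants was 13.1, 16.0, 28.8 and 20.6 CPM in cows 1 to 4, and 28.4, 32.7 and 15.0 CPM in cows 5 to 7. With sPIF it was 10.7, 11.0, 11.3 and 13.8 CPM in cows 1 to 4, and 19.0, 13.0 and 11.9 CPM in cows 5 to 7. The spread of GJC1 between cows was narrower with sPIF, where cow 5 lay above the other cows, and the cows that were high in the Control explants (3, 5 and 6) belonged to both lanes. The mean GJC1 level was 22.1 ± 7.85 CPM (SD, n = 7) in Control explants and 13.0 ± 2.88 CPM (SD, n = 7) in sPIF explants, with the highest library 2.50 times and 1.77 times the lowest. The Control and sPIF explants overlapped for GJC1 too. Among the genes tested, 2 had every sPIF library below every Control library (0.0151%), and neither CNN1 nor GJC1 was one of them.

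**Figure D1:**
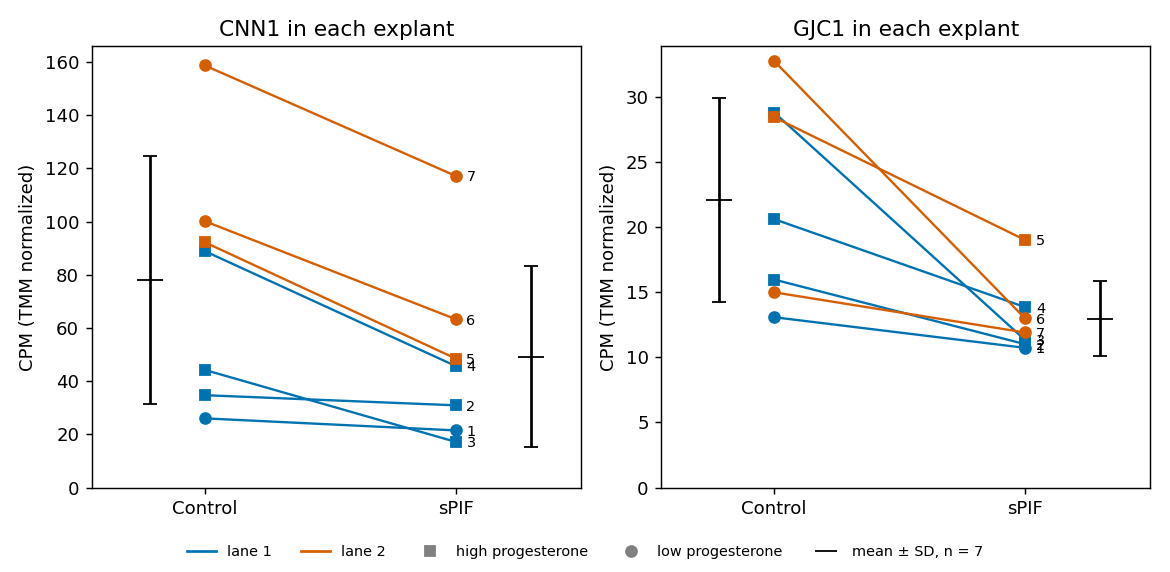
CNN1 (left) and GJC1 (right) in each of the 14 explants, in TMM normalized CPM on axes that start at 0, with a line joining the Control and sPIF explants of each numbered cow. Colours mark the lane, squares and circles the high and low progesterone groups, and the black bars the mean ± SD of 7 explants. Each line falls from Control to sPIF, between 159 and 117 CPM for CNN1 in cow 7 and between 32.7 and 13.0 CPM for GJC1 in cow 6.

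Within cows, CNN1 was lower in the sPIF explant in 7 of 7 cows, by a log2 difference of -0.27, -0.17, -1.36 and -0.96 in cows 1 to 4 and of -0.93, -0.66 and -0.44 in cows 5 to 7. GJC1 was also lower in 7 of 7 cows, with log2 differences of -0.28, -0.53, -1.34 and -0.57 in cows 1 to 4 and of -0.58, -1.33 and -0.33 in cows 5 to 7. Since the direction under sPIF led to the choice of both genes, nothing is read from these counts. Of the genes tested, 212 were lower in 7 of 7 cows (1.6%) and 176 were higher in 7 of 7 cows (1.33%). The size of the difference varied between cows for both genes: cow 3 had the most negative value of each, cow 6 had nearly as negative a value for GJC1, and cow 1 was among the cows with the smallest difference for each. In bulk tissue such as this, fewer cells of a type and less RNA per cell cannot be told apart.

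In edgeR's fit with cow as a block, the log2 fold change with sPIF was -0.69 (SE 0.138) for CNN1, a level 1.61-fold lower, and -0.71 (SE 0.152) for GJC1, a level 1.64-fold lower. Without cow 3 the log2 fold changes were -0.58 and -0.61. The median log2 fold change of all tested genes was 0.00125. At an adjusted p below 0.1 the edgeR test called 0 genes for sPIF (0%), with 1061 genes at an unadjusted p under 0.05, of which 617 were lower with sPIF (4.66%). DESeq2's Wald test in the same design called 100 genes, of which 78 were lower (0.589%), and limma-voom called 0. CNN1 and GJC1 were among the 78 lower genes, as their choice from the genes lower with sPIF would give.

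The counts behind these values were large enough that counting error was small beside the differences of most cows. CNN1 had between 331 and 2699 counts per library and GJC1 between 185 and 785. The counting error of a within-cow log2 difference was between 0.0397 and 0.0975 for CNN1 and between 0.0883 and 0.138 for GJC1. The difference of CNN1 in cow 2 (-0.17) and that of GJC1 in cow 1 (-0.28) were the nearest to this error, at about double it. Depth differed within cows, with more counts in total for the sPIF explant in 5 of 7 cows. Before scaling, the CNN1 count was higher with sPIF in 2 of 7 cows (cows 1 and 7), and the GJC1 count was higher in 4 of 7 cows (cows 1, 4, 5 and 7), and the sPIF library was deeper in each of these cows. For CNN1 in those 2 cows and for GJC1 in those 4, the gene was lower with sPIF as a share of the library but not in unscaled counts.

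Set against all tested genes of the same cow, the CNN1 difference was most extreme in cow 4, where 0.899% of genes had a more negative log2 difference, and least in cow 2, where 26.6% had one. For GJC1 the share was lowest in cow 6, at 1.39%, and highest in cow 1, at 15.7%. Cow 3, with the most negative log2 differences of both genes, did not have the lowest share for either (2.52% for CNN1 and 2.70% for GJC1), because its differences were wide over all genes.

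The question of whether lane or progesterone group changed the sPIF difference was addressed with interaction terms, as the study's design provides. These terms are fitted to the within-cow differences that chose both genes, so their p-values are not free of that choice. In lane 1 the log2 fold change of CNN1 with sPIF was -0.69 (SE 0.215, 4 cows) and in lane 2 it was -0.67 (SE 0.153, 3 cows). For GJC1 it was -0.69 (SE 0.195) in lane 1 and -0.74 (SE 0.227) in lane 2. The difference between lanes was 0.02 (SE 0.286) on the log2 scale for CNN1, with a Benjamini-Hochberg adjusted p of 0.984 in edgeR's quasi-likelihood test, and -0.06 (SE 0.317) for GJC1, with an adjusted p of 0.957. Without cow 3 these differences were -0.20 and -0.28. Both estimates from all cows were smaller than their standard errors. Across the table edgeR called 0 genes for this interaction (0%), with 1516 at an unadjusted p under 0.05, while limma-voom called 0 and DESeq2 called 175.

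The values were further apart between the progesterone groups. For CNN1 the log2 fold change with sPIF was -0.87 (SE 0.202) in the 4 cows with high progesterone and -0.46 (SE 0.129) in the 3 cows with low progesterone. The difference of -0.40 (SE 0.264) between the groups did not pass the test (edgeR quasi-likelihood, Benjamini-Hochberg adjusted p = 1.00). For GJC1 the log2 fold changes were -0.77 (SE 0.190) and -0.65 (SE 0.241), and their difference was -0.10 (SE 0.324), also with an adjusted p of 1.00 from edgeR. The direction of the GJC1 difference turned when cow 1, cow 3 or cow 7 was left out. Without cow 3 it was 0.0943. That of CNN1 lay between -0.62 (without cow 2) and -0.23 (without cow 3). For this interaction edgeR called 0 genes (0%), with 188 at an unadjusted p under 0.05, and DESeq2 and limma-voom called 0 as well.

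How the levels of CNN1 and GJC1 varied between cows is a measure that their choice did not use. With the counts of both explants of a cow added, the CNN1 level was 23.3, 32.9, 33.6 and 63.7 CPM in cows 1 to 4 and 65.3, 80.4 and 134 CPM in cows 5 to 7. The lanes did not overlap, although cow 4 of lane 1 and cow 5 of lane 2 lay close together. CNN1 was 2.43-fold higher in the cows of lane 2 (log2 difference 1.28, SE 0.358), at 93.1 ± 35.9 CPM (SD, n = 3) against 38.4 ± 17.5 CPM (SD, n = 4), with a Benjamini-Hochberg adjusted p of 0.0298 in edgeR's quasi-likelihood test. Such a difference was common among all genes. At the same threshold 39.6% of the genes tested differed between lanes and 19.6% were higher in lane 2, and 19% had the cow sums of lane 2 above those of lane 1 as CNN1 did.

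The difference of CNN1 between lanes was also present in the Control explants alone, where the log2 difference was 1.25 and the adjusted p from edgeR was 0.0650. The Control libraries of lane 2 lay above those of lane 1 for CNN1 and for 15.8% of the genes tested. With the libraries of both treatments pooled, the lanes overlapped for CNN1, because the sPIF explants of cows 5 and 6 lay below the Control explant of cow 4. On that measure 8.71% of genes had every library of lane 2 above those of lane 1. Leaving out each cow in turn gave log2 differences between 0.94 without cow 7 and 1.64 without cow 4. Each cow was sequenced in 1 lane, so lane and the cows within it cannot be told apart.

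GJC1 showed no such separation. Its cow sums were 11.7, 13.6, 21.9 and 16.7 CPM in lane 1 and 22.6, 22.3 and 13.1 CPM in lane 2, with cow 7, the highest for CNN1, as the lowest of its lane. The log2 difference between lanes was 0.27 (SE 0.266) for GJC1, with means of 19.3 ± 5.40 CPM (SD, n = 3) in lane 2 and 16.0 ± 4.47 CPM (SD, n = 4) in lane 1, and an edgeR adjusted p of 0.472. With a single cow left out it lay between 0.14 (without cow 1) and 0.51 (without cow 7). Whether the genes differed from each other in this was tested on the ratio of their counts within a library. The log2 ratio of CNN1 to GJC1, averaged over the explants of a cow, was 2.28 ± 0.96 (SD, n = 3) in lane 2 and 1.21 ± 0.55 (SD, n = 4) in lane 1, a difference that did not pass a two-sided exact permutation test, with 35 splits of the cows (p = 0.114, Benjamini-Hochberg adjusted p = 0.229 over 2 tests). The smallest p these splits allow is 0.0286. The ratio is therefore not shown to differ between lanes.

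Progesterone group went with no detectable difference in either gene. On cow sums CNN1 was 48.9 ± 18.0 CPM (SD, n = 4) with high and 79.1 ± 55.2 CPM (SD, n = 3) with low progesterone, a log2 difference of -0.70 (SE 0.515) with an edgeR adjusted p of 0.852. With a single cow left out, this difference lay between -0.10 (without cow 7) and -1.13 (without cow 1). GJC1 was 18.7 ± 4.29 CPM (SD, n = 4) with high and 15.7 ± 5.76 CPM (SD, n = 3) with low progesterone, a log2 difference of 0.26 (SE 0.288) with an edgeR adjusted p of 0.853, and between 0.09 (without cow 1) and 0.60 (without cow 6) with a single cow left out. The progesterone groups were uneven over the lanes, with 3 of the 4 high cows in lane 1 and 2 of the 3 low cows in lane 2. Within lane 1 CNN1 was at 43.4 CPM on average in the high cows and 23.3 CPM in the low cow, while in lane 2 it was at 65.3 CPM in the high cow and 107 CPM on average in the low cows, so that the direction turned between lanes. For GJC1 these levels were 17.4 and 11.7 CPM in lane 1 and 22.6 and 17.7 CPM in lane 2. For CNN1 the low group held both the lowest cow (cow 1) and the highest (cow 7), so its SD was wide. The log2 ratio of CNN1 to GJC1 was 1.34 ± 0.55 (SD, n = 4) with high and 2.10 ± 1.18 (SD, n = 3) with low progesterone, a difference that did not pass the exact two-sided permutation test (p = 0.314). At the threshold edgeR called 0 genes for progesterone group (0%), with 458 at an unadjusted p under 0.05, while limma-voom called 0 and DESeq2 called 24.

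Ordered by treatment and lane, CNN1 was highest in Control explants of lane 2 at 117 ± 36.3 CPM (SD, n = 3), then 76.4 ± 36.1 CPM in sPIF explants of lane 2 (SD, n = 3), 48.5 ± 28.0 CPM in Control explants of lane 1 (SD, n = 4) and 28.8 ± 12.6 CPM in sPIF explants of lane 1 (SD, n = 4). Of the neighbours in this order, the first and second were separated by more than the larger of their SDs, and the others were not. The first and second are explants of the same 3 cows, so that these SDs between cows leave out the pairing, and their gap is part of the sPIF difference that chose CNN1. For GJC1 the order was Control explants of lane 2 at 25.4 ± 9.26 CPM (SD, n = 3), Control explants of lane 1 at 19.6 ± 6.86 CPM (SD, n = 4), sPIF explants of lane 2 at 14.6 ± 3.83 CPM (SD, n = 3) and sPIF explants of lane 1 at 11.7 ± 1.44 CPM (SD, n = 4). No neighbours in the GJC1 order were separated by more than the larger SD.

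The share of the variation between libraries that lay between cows was larger for CNN1 than for GJC1. For CNN1, cow accounted for 82.4% of the sum of squares of log2 CPM and treatment for 13.2%, and the part of the cow share that lay between lanes was 53.9% of the total. For GJC1, cow accounted for 39.9% and treatment for 45.1%, and the part between lanes was 9.34% of the total. Over all tested genes the median share of cow was 75.6%, and 6.36% of genes had a lower one than GJC1. The share of treatment is larger in genes chosen for their difference with sPIF (its median over all tested genes was 2.32%), and it lowers the share left for cow.

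As a description of values that entered the choice of the genes, the ratio of CNN1 to GJC1 counts had no common direction of change between the explants of a cow. Its log2 value changed by 0.03 ± 0.38 (SD, n = 7) from Control to sPIF, being higher in 3 cows and lower in 4, with changes between -0.39 and 0.67. Across the 7 cows the log2 differences of CNN1 and GJC1 had a Pearson r of 0.620 and a Spearman rho of 0.750, given without a test because the same contrast chose both genes. Without cows 2 and 3, the farthest from the median of CNN1, r was 0.336. With a single cow left out, r lay between 0.324 (without cow 3) and 0.807 (without cow 6). The lanes hold 4 and 3 cows, too few for a value within each.

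To ask whether other smooth muscle genes moved with CNN1 and GJC1, a list of 20 genes of the contractile apparatus was compiled, but gene symbols could be attached only to the genes that the study had singled out for their change with sPIF. TPM2, which encodes a tropomyosin that lies along the actin filament, and SMTN, which encodes smoothelin, an actin-associated protein of contractile smooth muscle, were the 2 of 20 listed genes that could be matched. Having been chosen on these same explants, they are not independent evidence of a direction. Of 6 listed genes of the calponin and transgelin family 1 was matched (CNN1), and of 20 listed connexins 1 was matched (GJC1). Of 22 listed genes around serum response factor, a regulator of muscle genes, 0 were matched.

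TPM2 was at 29.1 ± 14.5 CPM (SD, n = 7) in Control and 21.8 ± 11.6 CPM (SD, n = 7) in sPIF explants, with libraries between 14.6 and 59.9 CPM in the former (median 26.3 CPM) and between 11.6 and 46.4 CPM in the latter (median 18.5 CPM). Its highest levels in both treatments were those of cow 2, a cow in which CNN1 was low. SMTN was at 79.0 ± 24.1 CPM (SD, n = 7) in Control and 61.6 ± 28.9 CPM (SD, n = 7) in sPIF explants, with libraries between 49.4 and 116 CPM (median 72.4 CPM) and between 33.4 and 105 CPM (median 47.1 CPM). As with CNN1, the SMTN levels of lane 2 lay above those of lane 1 within each treatment. Among Control libraries this held for 15.8% of all genes tested, and the share among sPIF libraries is not given here.

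Within cows TPM2 and SMTN were lower with sPIF in 7 of 7 cows each, with mean log2 differences of -0.42 ± 0.22 and -0.44 ± 0.31 (SD, n = 7) beside -0.68 ± 0.43 for CNN1 and -0.71 ± 0.44 for GJC1. Their log2 fold changes were -0.43 (SE 0.0947) and -0.44 (SE 0.108), given without a test since the study chose both genes on this contrast. Without cow 3 they were -0.45 for TPM2 and -0.34 for SMTN. The median log2 fold change of this matched pair was -0.43, against 0.00125 for all tested genes. In the fits over all genes, edgeR called 0 of them and DESeq2 called 2 lower, beside 78 of all 13233 genes (0.589%). Because the study chose both from such calls, these are no test of the pair. A wider list of 22 genes was taken from those the study had singled out, among them genes of muscle, matrix, cell adhesion and receptors. Of these, 21 passed the filter on low counts and 0 were called by edgeR, while DESeq2 called 18 lower and 3 higher, beside 78 lower and 22 higher among all genes tested. Nothing is read from these counts, because the study drew its genes from calls on the same samples. The median log2 fold change of this list was -0.60, from -1.81 for SELP to 0.65 for PLEK2.

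**Figure D2:**
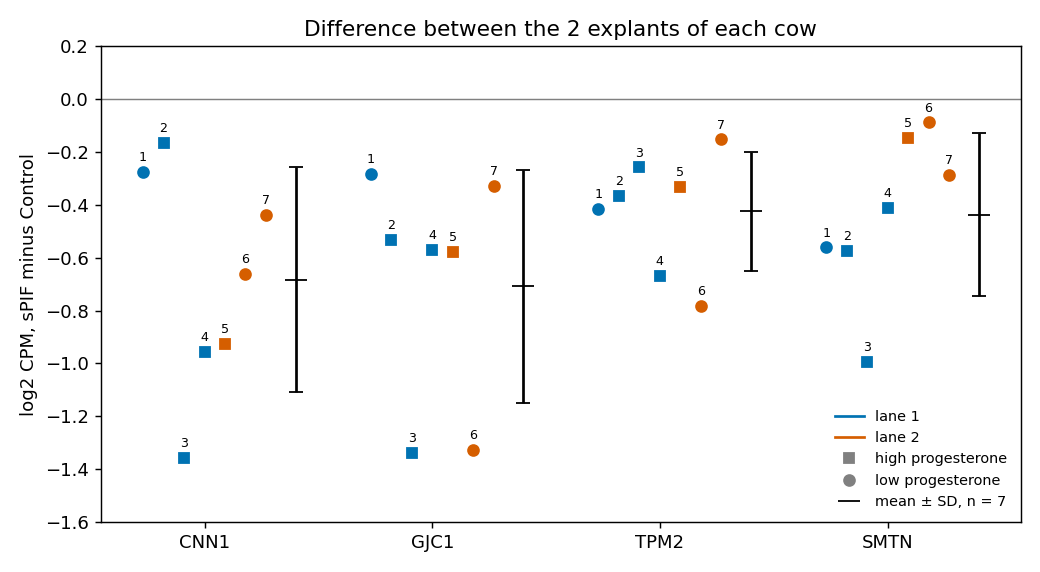
Log2 difference in CPM between the sPIF and the Control explant of each numbered cow for CNN1, GJC1, TPM2 and SMTN, with colours for lane, squares and circles for the high and low progesterone groups, and black bars for the mean ± SD of 7 cows. All points lie below 0, and the cows are not in the same order for the 4 genes: cow 3 is lowest for CNN1 (-1.36), GJC1 (-1.34) and SMTN (-0.99), while cow 6 is lowest for TPM2 (-0.78).

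The cows with the larger differences were not the same for these genes. For TPM2 the most negative log2 differences were in cows 6 (-0.78) and 4 (-0.67), and cow 3, the most negative for CNN1 and GJC1, had -0.26. For SMTN they were in cow 3 (-0.99) and in cows 1 and 2 (-0.56 and -0.58), while cow 6, which had one of the most negative values of GJC1, had -0.09. The SMTN difference averaged -0.63 ± 0.25 (SD, n = 4) in lane 1 and -0.17 ± 0.10 (SD, n = 3) in lane 2, beside -0.69 ± 0.57 and -0.67 ± 0.24 for CNN1 and -0.68 ± 0.46 and -0.75 ± 0.52 for GJC1. The interaction of sPIF with lane for SMTN was 0.46 (SE 0.164) on the log2 scale and did not pass the threshold (edgeR quasi-likelihood, Benjamini-Hochberg adjusted p = 0.388). Without cow 3 this interaction was 0.34. The p-value from all cows is not free of the choice of SMTN on the sPIF contrast.

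The correlations of the within-cow differences of CNN1 and GJC1 with those of TPM2 and SMTN are likewise a description without a test, since the sPIF contrast chose all of these genes. Across the 7 cows, r with the summed level of TPM2 and SMTN was 0.345 for CNN1 and 0.245 for GJC1, and rho was 0.179 and -0.0714. Without the 2 cows farthest from the median of CNN1 or GJC1, r with the summed level was -0.253 and -0.154. With TPM2 alone r was then 0.375 and 0.460, and with SMTN alone it was -0.457 and -0.287. For the single genes, r was 0.0426 for CNN1 with TPM2, 0.281 for CNN1 with SMTN, 0.358 for GJC1 with TPM2 and 0.190 for GJC1 with SMTN. Without cow 3, r was -0.633 for CNN1 and -0.651 for GJC1 with SMTN, so the positive values with SMTN rested on that cow. With TPM2, r was then 0.404 for CNN1 and 0.767 for GJC1. The direction with TPM2 turned when certain other cows were left out. For CNN1 it was -0.0221, -0.111 and -0.116 without cow 2, 4 or 7, and for GJC1 -0.138 without cow 6.

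Between lanes, a measure that did not choose them, 1 of the 2 matched genes passed the test, beside 39.6% of all genes tested, so that nothing particular to smooth muscle genes is read from it. SMTN was higher in lane 2, as CNN1 was, with a log2 difference of 0.91 (SE 0.147) and an edgeR adjusted p of 0.00397 (95.6 ± 11.9 CPM, SD, n = 3, against 51.0 ± 7.77 CPM, SD, n = 4). TPM2 had a log2 difference of -0.67 (SE 0.382) with an edgeR adjusted p of 0.220 (18.8 ± 5.94 CPM, SD, n = 3, against 30.0 ± 15.8 CPM, SD, n = 4), and without cow 2, the highest for TPM2, it was -0.24.

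The genes most like CNN1 and GJC1 could be named only among the 86 tested genes with a symbol, which the study had likewise singled out for their change with sPIF. Over the 14 libraries, which share treatment, lane and cow, the log2 level of CNN1 had the highest Pearson r with EMP3 (0.937), PPP1R15A (0.931), NR1D1 (0.922), STAT5A (0.916) and NFKBIE (0.911). These lay at ranks 4 to 27 among the 13232 other tested genes, most of them unnamed here. With SMTN the r of CNN1 was 0.809 (rank 409), with GJC1 0.465 and with TPM2 -0.0996. Part of this follows the lanes: with each lane centred on its mean, r was 0.860 with EMP3 and 0.517 with SMTN. The r of CNN1 with TPM2 then turned to 0.406, and that with GJC1 was 0.373. The highest among the named genes was then that with ADA (0.897).

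For GJC1 the highest values of r over the 14 libraries were with SERPINH1 (0.908), a collagen chaperone, TWIST1 (0.891), a transcription factor of mesenchymal cells, SERPINB9 (0.835), IGF2 (0.83) and TSPAN5 (0.818). These lay at ranks 4 to 27 as well, while r of GJC1 with SMTN was 0.646 (rank 370) and with TPM2 -0.166. Centring the lanes left SERPINH1 (0.912, rank 5) and TWIST1 (0.897, rank 12) as the highest for GJC1 among the named genes. The r of GJC1 with SMTN was then higher, at 0.769 (rank 150), and that with TPM2 was -0.0271.

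Over the within-cow differences of the 7 cows, and again among the genes with a symbol, CNN1 was closest to GADD45G (r = 0.928), IGF2 (0.888), FSTL3 (0.852), RPRM (0.852) and PTGDR (0.832), at ranks 13 to 142 of 13232 genes. GJC1 was closest to RGS16 (0.981), TSPAN5 (0.961), RAB8B (0.897), RASSF1 (0.887) and FMOD (0.884), at ranks 3 to 127. These values describe 7 points each, and genes without a symbol lay closer. All of them include cow 3, and values without it are not given here.

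Markers of pericytes, endothelium, stromal fibroblasts, epithelium, leukocytes and red cells had been listed to follow the make-up of the explants, with 10, 12, 12, 13, 13 and 6 genes. Of each list 0 genes could be matched to an identifier, so their levels were not analysed here, and the labelled tissue was not checked against its markers for the same reason. Of the genes that the study had singled out, SELP, VCAM1 and CALCRL, which endothelium is known to express, had log2 fold changes with sPIF of -1.81, -1.20 and -0.55. They were picked here after their values were seen and stand in no list of markers, and their part in the values of CNN1 and GJC1 was not tested. A difference in tissue make-up between the explants of a cow was likewise not tested.

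In the RefSeq annotation of the ARS-UCD2.0 assembly, a later one than that used for the counts, CNN1 lies between ECSIT and ELOF1 and GJC1 between ADAM11 and HIGD1B. In it 0 genes overlap either of them. Counting was not stated to use strand, so reads from an antisense transcript at either gene could not have been separated.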

How the data were processed

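RNA from 14 endometrial explants, 1 Control and 1 sPIF explant from each of 7 cows, was sequenced by the authors from TruSeq libraries as paired-end reads. By the submitters' processing notes and the study's methods, reads were checked with FastQC, trimmed with Trimmomatic 0.36.0, mapped with Bowtie2 2.2.6 to the UMD3.1 assembly and counted per gene with featureCounts 1.4.6, and the counts of 2 runs were added for cows 5 to 7. The deposited values are raw counts of reads per gene, without normalization. A final row of column totals was left out.

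Treatment and cow number came from the labels, and dose and time from the study's methods. Lane and progesterone group came from the study's results, taking the number in each label as the study's cow number. CNN1, GJC1 and the gene lists were chosen with earlier results of these data known. The genes named are CNN1, GJC1, matched genes of the calponin, connexin and contractile lists, and the 5 genes with a symbol and the highest r with CNN1 or GJC1; of other lists, up to 4 or those past the threshold could be named. Genes at the ends of the muscle and matrix list (SELP, PLEK2), VCAM1 and CALCRL, the lane-centred values and the neighbouring genes were added after the data were seen. Symbols came from the study's supplementary gene table, which held 102 identifiers, 89 of them with a symbol. An extra 0 was removed from 27 of the 102. None of the identifiers, 0 of 24616, matched the RefSeq table used here.

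Genes with under 10 counts in any library were dropped, and the other 13233 were tested in R 4.3.3 by the quasi-likelihood test of edgeR 4.0.16 after TMM normalization. Cow was a block, and p-values were adjusted over all tested genes by the Benjamini-Hochberg method, with a threshold of 0.1. Lane and progesterone group were tested on counts summed per cow. Within-cow differences used log2 CPM with a prior count of 2. Standard errors of edgeR estimates were derived from the test statistic. Counting errors assume Poisson counts. Correlations of sPIF differences over cows are given without p-values, since that contrast chose the genes. Shares of variation are sums of squares of log2 CPM. The pairing, given by the labels and methods, was checked with the correlation over genes of each explant's deviation from its group mean: r was 0.412 to 0.764 for explants of the same cow (median 0.667, n = 7) and -0.559 to 0.543 for those of different cows (median -0.121, n = 42). The edgeR tests of the sPIF effect and of lane on cow sums were tested on simulated data, and the other tests were not. Alternatives were DESeq2 1.42.0, limma-voom 3.58.1, other normalizations and filters, fits without the block, each cow left out, Control explants alone, and single lanes and progesterone groups. A promoter motif search was not run, since no promoter sequences were used here.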

Additional observations from a re-analysis of the deposited data

Results flagged for a closer look

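In 3 of 38 groups of 4 or 7 values examined, the highest or lowest value lay far from the nearest of the others for the width of the group. Chance gives about 1 in 20 groups, or 1.9 of 38, and the groups share cows and genes. The log2 difference of GJC1 in cow 3, -1.34, lay apart from those of the other cows with high progesterone, with a gap to its nearest neighbour of 0.944 of the group's range (n = 4). The log2 CPM of TPM2 in the sPIF explant of cow 2, 5.54, lay above those of the other sPIF explants of lane 1, with a gap of 0.844 of the range (n = 4), and the Control explant of that cow was also the highest for TPM2. The SD over genes of the within-cow log2 differences was 0.759 in cow 3, with a gap of 0.605 of the range (n = 7). What lies behind the values of cows 2 and 3 was not tested.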

How the results depend on the processing

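Of the results under other settings, 403 stayed the same and 27 changed sign. Tested results stayed the same by keeping their direction and their side of the threshold. Untested values did so by keeping their direction and lying within the SD between cows. Counts of genes did so by lying within a fixed fold of the main count. Another 3 results, all counts of genes under DESeq2, moved further. The last 2 were the sPIF differences of TPM2 and SMTN, which DESeq2 called and edgeR did not. The sPIF contrast chose CNN1 and GJC1, so nothing is read from whether they were called for sPIF (both by DESeq2, neither by edgeR). The log2 fold changes of CNN1 and GJC1 with sPIF were negative under every setting tried. With a cow left out they were between -0.77 and -0.58 and between -0.79 and -0.61. With no replicate block they were -0.66 (SE 0.445) and -0.77 (SE 0.219). That fit also called 0 genes for sPIF, with 200 at an unadjusted p under 0.05 against 1061 with the block. The higher CNN1 level in lane 2 passed the threshold under every setting, with adjusted p between 0.00210 (DESeq2) and 0.0966 (edgeR without cow 7). DESeq2 called 100 genes for sPIF, 175 for its interaction with lane and 24 for progesterone group, where edgeR called 0. The lane differences of CNN1 and SMTN, which passed the edgeR test, did not change sign. Without the block the interaction of sPIF with progesterone was 0.00914 for GJC1. With each cow left out in turn, the lane interaction ranged from -0.20 to 0.20 for CNN1, -0.28 to 0.23 for GJC1 and -0.14 to 0.19 for TPM2. The progesterone interaction ranged from -0.45 to 0.0943 for GJC1 and -0.12 to 0.20 for TPM2, and the progesterone difference from -0.27 to 0.53 for TPM2 and -0.41 to 0.10 for SMTN. Correlations ranged from -0.412 to 0.557 (CNN1) and -0.466 to 0.697 (GJC1) with the summed genes, -0.116 to 0.404 and -0.138 to 0.767 with TPM2, and -0.633 to 0.466 and -0.651 to 0.731 with SMTN. The cause was not tested. The correlations with single genes and the ratio of CNN1 to GJC1 were added after the data were seen.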
